A study of Mus musculus with 9 samples.

Results

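The 10 genes described here serve glucose uptake, the early control of glycolysis and the handling of lactate. They are the glucose transporter genes Slc2a1, Slc2a3 and Slc2a8, the glycolytic control genes Hk2 and Pfkfb3, the lactate dehydrogenase genes Ldha and Ldhb, the lactate transporter genes Slc16a1 and Slc16a3, and Hif1a, which encodes a transcription factor that controls many genes of this pathway. They were chosen by name and make up 10 of the 23337 genes in the table, where all 10 were found. RNA was sequenced from immortalised mouse embryonic fibroblasts (MEFs) on a mixed C57BL/6 x 129 background, all of which lacked a functional Cebpb gene (Cebpb-ko). The EV group carried the empty vector, the LAP group a vector for the long C/EBPβ isoform and the LIP group a vector for the short isoform, both from rat, after stable transfection and selection with Zeocin in high-glucose medium. Each group had 3 libraries, which makes 9, and the sources do not say whether those of a group came from separate transfections, so p-values measure the spread between these libraries, which may be technical. LAP binds DNA and activates transcription, whereas LIP keeps the DNA-binding part and lacks the activation domains.

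Glucose enters fibroblasts through transporters of the Slc2a (GLUT) family and is trapped in the cell by hexokinase. Lactate dehydrogenase, a tetramer of A and B subunits, converts pyruvate and lactate into each other, and lactate leaves or enters the cell through monocarboxylate transporters of the Slc16a (MCT) family. Under low oxygen, Hif1a protein is stabilised and, with its partner Arnt, activates genes of this pathway through DNA sites with the core letters ACGTG or GCGTG. Hif1a activity is set mainly by protein stability, which mRNA counts do not measure.

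The 250 bases before an annotated transcript start of 5 of these genes are shown so that the placement of such core letters can be compared between genes whose levels are described below. The sequences are from RefSeq on GRCm38.p6, which had a window for 9 of the 10 genes, and run 5′ to 3′ on the gene's own strand. The first listed window was used where RefSeq had several (Ldha and Pfkfb3 had 2 each). The start used lies 3530 bases inside the gene span given below for Ldha and 6543 bases inside it for Hif1a, so these windows belong to a later transcript start, while for the 3 other genes shown the start used is that of the gene. Capitals mark every ACGTG or GCGTG on either strand, so that CACGT and CACGC are these letters read from the other strand and CACGTG counts once on each.
Ldha, chr7:46845554-46845803, plus strand: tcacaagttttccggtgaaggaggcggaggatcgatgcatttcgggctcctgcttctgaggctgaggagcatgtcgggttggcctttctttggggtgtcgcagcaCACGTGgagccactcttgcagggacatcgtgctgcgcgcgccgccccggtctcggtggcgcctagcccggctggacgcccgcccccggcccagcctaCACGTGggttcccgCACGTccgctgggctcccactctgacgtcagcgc
Ldhb, chr6:142507958-142508207, minus strand: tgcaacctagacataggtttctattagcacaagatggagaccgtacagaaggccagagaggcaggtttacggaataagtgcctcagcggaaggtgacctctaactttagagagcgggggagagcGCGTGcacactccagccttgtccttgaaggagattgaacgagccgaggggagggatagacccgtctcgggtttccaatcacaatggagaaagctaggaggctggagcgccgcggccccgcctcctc
Slc16a1, chr3:104638414-104638663, plus strand: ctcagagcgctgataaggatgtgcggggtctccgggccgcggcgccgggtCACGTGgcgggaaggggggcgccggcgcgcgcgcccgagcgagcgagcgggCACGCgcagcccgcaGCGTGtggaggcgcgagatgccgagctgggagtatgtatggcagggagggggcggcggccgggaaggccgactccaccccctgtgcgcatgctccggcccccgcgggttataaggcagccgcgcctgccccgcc
Slc2a1, chr4:119108495-119108744, plus strand: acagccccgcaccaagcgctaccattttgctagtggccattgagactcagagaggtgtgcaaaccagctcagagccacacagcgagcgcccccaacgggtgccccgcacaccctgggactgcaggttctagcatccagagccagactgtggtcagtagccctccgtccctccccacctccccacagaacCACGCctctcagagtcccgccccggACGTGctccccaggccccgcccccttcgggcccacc
Hif1a, chr12:73907617-73907866, plus strand: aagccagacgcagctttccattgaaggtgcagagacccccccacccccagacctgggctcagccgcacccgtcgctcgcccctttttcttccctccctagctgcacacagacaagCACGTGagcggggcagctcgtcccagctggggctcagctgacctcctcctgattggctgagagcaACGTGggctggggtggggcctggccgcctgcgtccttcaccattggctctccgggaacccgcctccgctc

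The Ldha window held 5 matches to ACGTG, counting both strands, whereas that of Ldhb held none and had 1 match to GCGTG. The letters ACGTG were found in 7 of the 9 windows, those of Slc2a1, Slc16a1, Slc16a3, Ldha, Hk2, Pfkfb3 and Hif1a, and GCGTG in 4, those of Slc2a1, Slc2a8, Slc16a1 and Ldhb. Of 32851 RefSeq promoter windows of the same length, 16.6% held ACGTG, 28.2% held GCGTG and 38.6% held at least 1 of them. The letters TTGCNNAA, the C/EBP consensus with its central bases left free, were in none of the 9 windows and in 9.56% of all windows. A match is only a match of letters, and the absence of one says nothing about binding elsewhere.

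Between 24839139 and 33522082 reads per library were assigned to genes. Counts were scaled to CPM, the share of a library's reads expressed on a common library size, with edgeR's TMM factors, which lay between 0.949 and 1.10, and 3 counts, used as the floor, stood for 0.0895 to 0.121 CPM. Only counting error enters such a floor, whereas the intervals of fold changes below include the spread between libraries. Cebpb itself was counted at 25.2 to 33.3 CPM in all 9 libraries, so it did not check the groups. Fibroblast markers summed to 35260 to 39730 CPM in EV, 29440 to 43170 in LAP and 17010 to 30250 in LIP, without overlap between LIP and EV, and their part in the results was not tested. Epithelial markers summed to 484.8 to 1004 CPM over the 9 libraries, mostly Krt8, with overlap of the groups, while the endothelial, leukocyte, muscle and neural lists each stayed under 9 CPM, with Pecam1, Ptprc, Myod1 and Rbfox3 at 0.

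The table counts some genes very low for reasons that the sources do not give, and this touches 3 of the 10 genes. Of the 15041 genes with 1 older RefSeq transcript record, 30.3% had a mean of at least 1000 counts, against 5.73% of 2006 genes with 2 such records and 4.0% of 925 genes with 3 or more. Ldha had 2 such records, Slc16a3 had 3 and Pfkfb3 had 8, and the other 7 genes had 1 each. Among other glycolytic enzymes, Aldoa with 3 records had a mean of 481 counts, whereas Pgk1 with 1 record had the highest mean, 30245. Some with 1 record were lower than Aldoa, such as Eno2 at 440 and Aldoc at 26.1. The cause was not tested, and low counts of Ldha, Slc16a3 and Pfkfb3 therefore cannot be read as low mRNA. Differences between libraries for these 3 genes rest on the reads that were counted. The same limit holds for genes of the related lists below. Hk1 with 2 records, Pfkm with 3 and Bsg with 2 had means of 104, 53 and 320 counts. Vegfa with 6 records had 0 counts.

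Per kilobase of exon, the median CPM over the 9 libraries ran from 55.7 for Hif1a, 28.7 for Slc2a3, 22.8 each for Slc16a1 and Slc2a1, 17.2 for Ldha and 14.9 for Hk2 to 4.99 for Ldhb, 3.24 for Slc2a8, 0.116 for Slc16a3 and 0.0136 for Pfkfb3. Each gene's range over the libraries overlapped that of the next gene in this order, except below Slc2a8 and below Slc16a3. These are levels of counted reads, and the values in the rest of the text are CPM not divided by length. For Ldha, Slc16a3 and Pfkfb3 the limit given above holds. Their places in this order, and the gaps around Slc16a3 and Pfkfb3, therefore cannot be read as differences in mRNA.

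None of the 10 genes passed an adjusted p of 0.05 in LIP against EV, LAP against EV or LIP against LAP by edgeR's quasi-likelihood test without covariates, nor by DESeq2 or the edgeR exact test. LIP against EV called 0.396% of all 18203 genes tested, LAP against EV 0.0606% of 18156 and LIP against LAP 1.05% of 18166. At an unadjusted p under 0.05, Ldhb and Hif1a were lower and Slc2a3 was higher in LIP than in EV, and Ldhb and Ldha were lower in LIP than in LAP. Thus LIP against EV had 2 of the 10 genes lower and 1 higher, where 6.75% and 4.23% of all genes were, and there were none in LAP against EV, where 1.34% of all genes were lower and 1.93% higher, and 2 lower and none higher in LIP against LAP, where 5.98% and 3.30% were. These counts are small, and nothing particular to the 10 genes follows from them. LIP and LAP were both compared with the same EV libraries.

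In LIP against LAP, libraries of the same replicate number deviated together, and the fit with the number as a block called 3 of the 10 genes, all lower in LIP. They were Ldhb, with a log2 fold change of -1.10 ± 0.246 (SE, adjusted p = 0.000782 by edgeR's quasi-likelihood test), Ldha with -0.66 ± 0.188 (adjusted p = 0.0136) and Slc16a1 with -0.58 ± 0.177 (adjusted p = 0.0277). That fit called 4.79% of all genes as lower and 1.72% as higher. With 3 libraries in each group, it takes the spread of a gene largely from that of all genes. It does so more strongly in LIP against LAP than in LIP against EV, so numbers of calls with the block cannot be compared directly between them. In LAP against EV the blocked fit also called none of the 10.

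**Figure D1:**
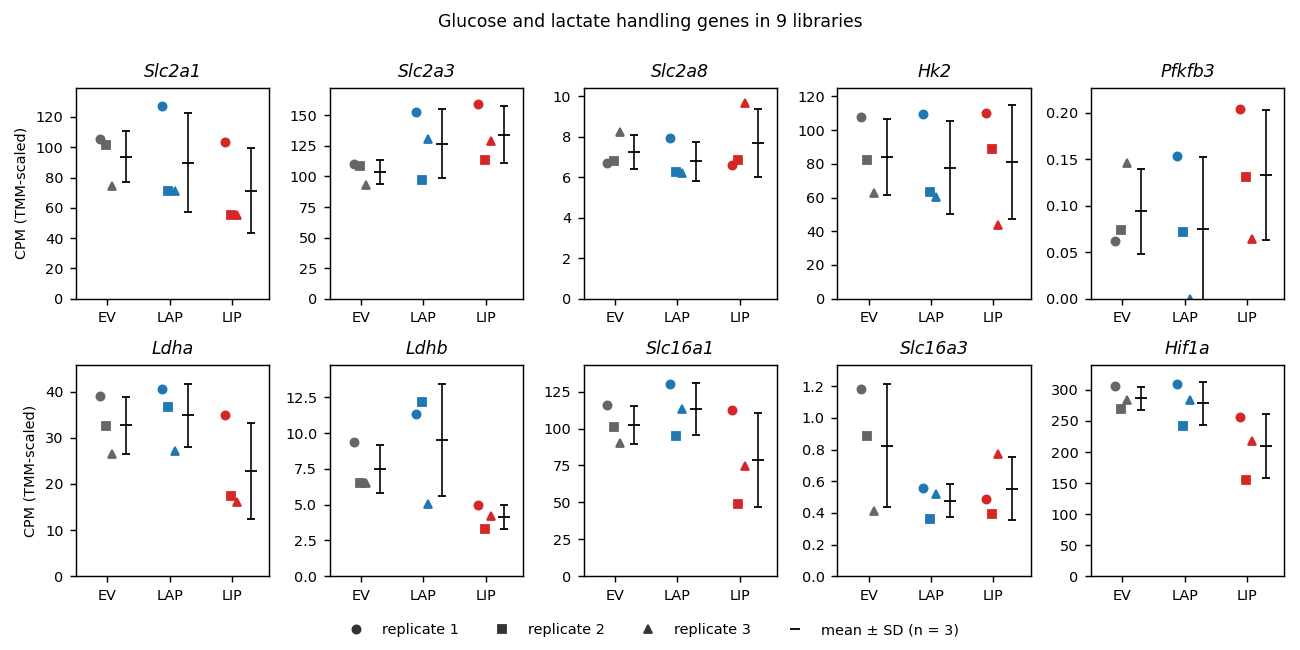
CPM (TMM-scaled, linear axis from 0) of the 10 genes in the EV, LAP and LIP libraries, with a marker shape for each replicate number and the mean ± SD of 3 libraries beside them; bars that reach below 0 are cut there. The 3 LIP libraries lay below all EV and LAP libraries for Ldhb and below all EV libraries for Hif1a, and above all EV libraries for Slc2a3.

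Slc2a1, at chr4:119108745-119137330 on the plus strand, encodes GLUT1, the main basal glucose transporter of fibroblasts. It stood at 105.7, 101.2 and 74.4 CPM in EV replicates 1 to 3, at 127.3, 71.0 and 71.2 CPM in LAP and at 103.6, 55.4 and 55.1 CPM in LIP. In LAP and LIP the library numbered 1 stood far above the other 2, and the groups overlapped. LIP against EV gave a log2 fold change of -0.39 ± 0.241 (SE, 95% interval -0.92 to 0.13), with an adjusted p of 0.614 by edgeR's quasi-likelihood test. It was -0.07 in LAP against EV and -0.32 in LIP against LAP. A predicted gene on the opposite strand overlaps 3.22% of its exon bases, and the strand setting of the counting is not given.

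Slc2a3, at chr6:122727809-122802363 on the minus strand, encodes GLUT3, a transporter with high affinity for glucose. It stood at 110.0, 108.4 and 92.7 CPM in EV, at 152.7, 96.7 and 130.8 CPM in LAP and at 159.6, 113.8 and 129.2 CPM in LIP. All LIP libraries were above all EV libraries, by a narrow margin for LIP replicate 2, while LAP overlapped both. Group means (± SD over 3 libraries) were 104 ± 9.53 CPM for EV and 134 ± 23.3 CPM for LIP. An exact permutation test, two-sided, gave p = 0.1, which is as low as 3 libraries against 3 can reach. LIP differed from EV by a log2 fold change of 0.37 ± 0.167 (SE, adjusted p = 0.446 by edgeR's quasi-likelihood test). Without overlap of CPM, 8.83% of all genes stood lower and 6.80% stood higher in LIP than in EV, and of the 10 genes Ldhb and Hif1a were lower and Slc2a3 was higher.

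Slc2a8, at chr2:32972981-32982083 on the minus strand, encodes GLUT8, a transporter found mostly on membranes inside the cell. It varied least of the 10 genes, between 6.21 CPM in LAP replicate 3 and 9.66 CPM in LIP replicate 3, a ratio of 1.55. The groups overlapped, and the log2 fold changes were 0.09 in LIP against EV, -0.10 in LAP against EV and 0.20 in LIP against LAP.

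The balance of the GLUT genes was also read as the ratio of Slc2a3 to Slc2a1 counts within each library, which does not depend on scaling. It was 1.04, 1.07 and 1.25 in EV, 1.20, 1.36 and 1.84 in LAP and 1.54, 2.05 and 2.34 in LIP. Every LIP library was above every EV library, and LAP overlapped both groups. The mean log2 ratio was 0.16 ± 0.14 in EV and 0.96 ± 0.31 in LIP (SD over 3 libraries), a difference of 0.81 with an exact permutation p of 0.1, or 0.36 after Benjamini-Hochberg adjustment over the 9 ratio comparisons. The difference lay between 0.67 and 0.98 when each library was left out in turn. Between LAP and EV it was 0.37 (p = 0.2 by the exact permutation test), and in LIP against LAP 0.43 (p = 0.2 by the same test). These tests did not use the replicate numbers. At each replicate number the ratio was higher in LAP than in EV and higher in LIP than in LAP, which was not tested.

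**Figure D2:**
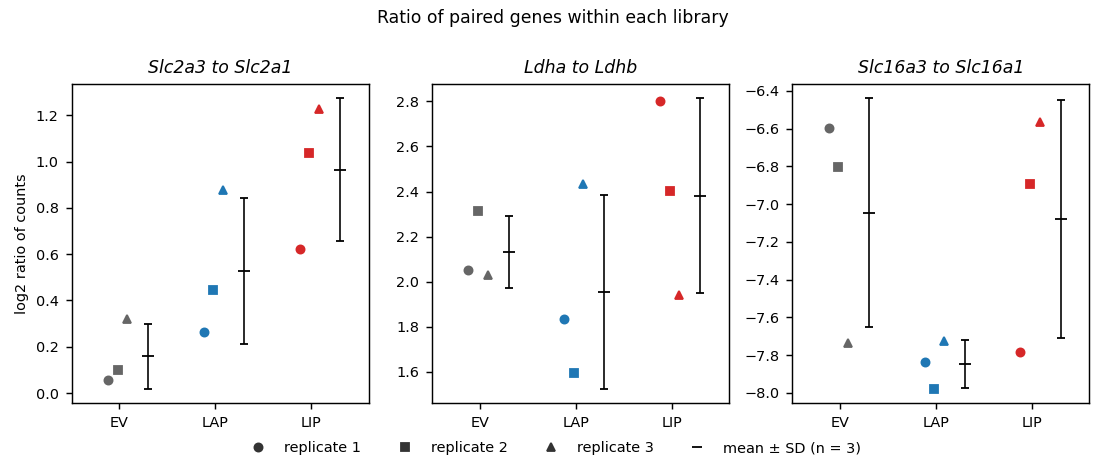
Log2 ratio of counts within each library for Slc2a3 to Slc2a1, Ldha to Ldhb and Slc16a3 to Slc16a1, with a marker shape for each replicate number and the mean ± SD of 3 libraries; each panel has its own axis, which does not start at 0. The LIP libraries lay above the EV libraries for Slc2a3 to Slc2a1, and the groups overlapped for Ldha to Ldhb and for Slc16a3 to Slc16a1.

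Hk2, at chr6:82725025-82774454 on the minus strand, encodes hexokinase 2, which phosphorylates glucose on entry. It stood at 107.7, 82.3 and 62.4 CPM in EV, at 109.4, 63.1 and 60.3 CPM in LAP and at 109.9, 88.9 and 43.9 CPM in LIP. In each group the library numbered 1 was the highest and that numbered 3 the lowest, and the libraries numbered 1 differed by less than 3 CPM between groups. The group means of 84.1 ± 22.7, 77.6 ± 27.6 and 80.9 ± 33.7 CPM (EV, LAP and LIP, SD, n = 3 each) differed by much less than their spread. LIP against EV gave a log2 fold change of -0.06 ± 0.287 (SE), with a 95% interval of -0.68 to 0.57, so a difference anywhere within that interval was compatible with these libraries.

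Pfkfb3, at chr2:11471430-11554071 on the minus strand, makes and breaks down fructose 2,6-bisphosphate, an activator of phosphofructokinase. It had 2, 2 and 5 counts in EV, 5, 2 and 0 in LAP and 5, 4 and 2 in LIP. These counts lay around the floor of 3 and allow no comparison.

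Ldha, at chr7:46842274-46855627 on the plus strand, encodes the A subunit of lactate dehydrogenase, which favours the step from pyruvate to lactate. It stood at 39.0, 32.6 and 26.6 CPM in EV, at 40.5, 36.8 and 27.2 CPM in LAP and at 34.9, 17.4 and 16.2 CPM in LIP. LIP replicates 2 and 3 were below all other libraries, while LIP replicate 1 lay within the range of EV and LAP. The mean was 32.7 ± 6.21 CPM in EV, 34.8 ± 6.86 in LAP and 22.8 ± 10.5 in LIP (SD, n = 3 each).

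The log2 fold change of Ldha was -0.52 ± 0.272 in LIP against EV (SE, adjusted p = 0.528 by edgeR's quasi-likelihood test) and -0.59 ± 0.279 in LIP against LAP (adjusted p = 0.524 without and 0.0136 with the replicate block). Between LAP and EV it was 0.08 ± 0.190 (SE). Of its 50-base stretches, 15.9% also occur in transcripts of 14 other genes, so part of its reads may have been placed elsewhere or left out.

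Ldhb, at chr6:142490249-142507957 on the minus strand, encodes the B subunit, which favours the step from lactate to pyruvate. It stood at 9.39, 6.53 and 6.50 CPM in EV, at 11.4, 12.1 and 5.03 CPM in LAP and at 4.98, 3.28 and 4.20 CPM in LIP. The LIP libraries were the 3 lowest of all 9, though LIP replicate 1 and LAP replicate 3 were almost equal. The means were 7.48 ± 1.66 CPM in EV, 9.51 ± 3.90 in LAP and 4.15 ± 0.853 in LIP (SD, n = 3 each), from 100 to 368 counts per library.

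The log2 fold change of Ldhb was -0.85 ± 0.259 in LIP against EV (SE, 1.80-fold lower, adjusted p = 0.212 by edgeR's quasi-likelihood test). It was -1.17 ± 0.333 in LIP against LAP (SE, 2.26-fold lower, adjusted p = 0.119 by the same test without the block). The adjusted p in LIP against LAP was 0.0104 without LAP replicate 3 and 0.0282 without LIP replicate 3. These 2 fits called 408 and 448 of all genes, beside 190 with all libraries. The other fits that left out 1 library did not call Ldhb, with adjusted p up to 0.511 by edgeR's quasi-likelihood test. LAP against EV gave 0.33 ± 0.286 (SE). Ldhb was the only one of the 10 genes without overlap of CPM in LIP against LAP, where 6.90% of all genes were lower and 5.91% higher without overlap. Between LAP and EV none of the 10 was without overlap, against 3.61% of all genes lower and 3.96% higher. Of its 50-base stretches, 27% also occur in transcripts of 1 other gene.

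The ratio of Ldha to Ldhb counts ranged from 3.02 to 5.40 in LAP, from 4.08 to 4.98 in EV and from 3.84 to 6.98 in LIP, so the subunit genes kept no separate ratio in any group. The difference of the mean log2 ratio in LIP against EV was 0.25 (p = 0.6 by the exact permutation test). Both subunit genes had negative log2 fold changes in LIP against EV, and the difference between them was not resolved.

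Slc16a1, at chr3:104638664-104658462 on the plus strand, encodes MCT1, which carries lactate in either direction. It stood at 115.9, 101.1 and 90.4 CPM in EV, at 130.4, 95.1 and 113.5 CPM in LAP and at 112.3, 48.6 and 74.9 CPM in LIP. LIP replicates 2 and 3 were the lowest of the 9 libraries, and LIP replicate 1 lay among EV and LAP. Its log2 fold change was -0.38 ± 0.247 in LIP against EV (SE, adjusted p = 0.641 by edgeR's quasi-likelihood test). Against LAP it was -0.51 ± 0.265 (SE, adjusted p = 0.599 without and 0.0277 with the replicate block).

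Slc16a3, at chr11:120948484-120959000 on the plus strand, encodes MCT4, which exports lactate from glycolytic cells. It had 38, 24 and 14 counts in EV, 18, 10 and 14 in LAP and 12, 12 and 24 in LIP, that is 0.359 to 1.18 CPM. The groups overlapped, and EV replicates 1 and 2 were the highest of the 9 libraries. Its log2 fold change was -0.57 ± 0.461 in LIP against EV and -0.78 ± 0.417 in LAP against EV (SE), with 95% intervals of -1.57 to 0.43 and -1.68 to 0.11. The ratio of Slc16a3 to Slc16a1 counts did not separate LIP from EV, with a difference in log2 ratio of -0.03 (p = 0.8 by the exact permutation test) that was 0.16 with a pseudocount of 10.

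Hif1a, at chr12:73901324-73947554 on the plus strand, was the most highly counted of the 10 genes. It stood at 306.5, 269.8 and 283.3 CPM in EV, at 309.7, 241.6 and 284.0 CPM in LAP and at 256.4, 155.1 and 217.3 CPM in LIP. All LIP libraries were below all EV libraries, by a narrow margin between LIP replicate 1 and EV replicate 2, and LIP and LAP overlapped. Group means (± SD over 3 libraries) were 287 ± 18.6 CPM for EV and 210 ± 51.1 CPM for LIP, with an exact permutation p of 0.1. LIP against EV gave a log2 fold change of -0.45 ± 0.192 (SE, adjusted p = 0.415 by edgeR's quasi-likelihood test). Against LAP it was -0.39 ± 0.246 without and -0.41 ± 0.175 with the replicate block (SE, adjusted p = 0.71 and 0.176 by edgeR's quasi-likelihood test). In LAP against EV it was -0.05 ± 0.166 (SE). Of its exon bases, 9.86% overlap a predicted gene on either strand.

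**Figure D3:**
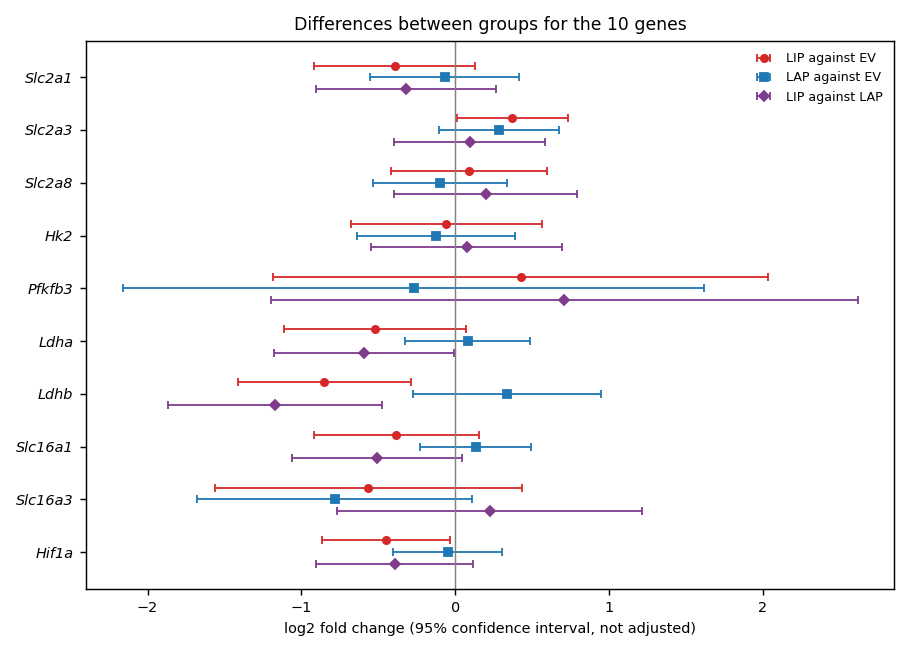
Log2 fold change of the 10 genes in LIP against EV, LAP against EV and LIP against LAP, from edgeR's quasi-likelihood test without covariates, with 95% confidence intervals that are not adjusted for the number of genes. The intervals exclude 0 for Ldhb, Hif1a and Slc2a3 in LIP against EV and for Ldhb and Ldha in LIP against LAP, and are widest for Pfkfb3.

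The libraries differed in a way that the groups did not account for. Over the 8 genes that averaged 20 counts or more, the median log2 deviation from the gene's mean over all 9 libraries was 0.33, 0.48 and 0.26 in the libraries numbered 1 of EV, LAP and LIP. It was -0.63 in LIP replicate 2 and -0.45 in LIP replicate 3. All 8 genes were above their own mean in LAP replicate 1, and Hk2 alone was in LIP replicate 2. In bulk RNA, fewer cells with a transcript and less of it per cell cannot be told apart.

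As a description over the 9 libraries, which share group and depth, Pearson's r of log2 CPM was 0.946 between Hif1a and Slc16a1, 0.869 between Slc2a1 and Ldha and 0.830 between Ldha and Ldhb, but 0.363 between Slc2a1 and Slc2a3. Among 10252 genes averaging 50 counts or more, those most like Slc2a1 were Dhcr7, an enzyme of cholesterol synthesis (r = 0.993), Eif4h (r = 0.982) and Mogs (r = 0.980). Those most like Hif1a were Sbsn (r = 0.984), the TNF receptor gene Tnfrsf1a (r = 0.983) and Bcat1, an enzyme of branched-chain amino acid breakdown (r = 0.982). For Slc16a3 they were Thsd4 (r = 0.941), Robo1 (r = 0.938) and Acsf3 (r = 0.906).

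The lists of related genes held 102 genes, of which 94 were tested in LIP against EV. The 73 that averaged 20 counts or more had a median log2 fold change of -0.15 in LIP against EV, beside 0.01 over all tested genes of that level. One list gene passed the test in LIP against EV without the block, where 0.396% of all genes did, and it was lower. It was Slc2a10, which encodes the transporter GLUT10 and had 44, 27 and 39 counts in EV, 47, 25 and 13 in LAP and 4, 9 and 2 in LIP. The LIP libraries were below all others. The log2 fold change was -2.72 ± 0.490 (SE, 6.58-fold lower, adjusted p = 0.0397 by edgeR's quasi-likelihood test), and the call was lost by leaving out any single EV library or LIP replicate 1, with adjusted p of 0.0564 to 0.122. Leaving out LIP replicate 2 moved it to -3.38 on the log2 scale.

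Of the 9 other glucose transporter genes tested in LIP against EV, Slc2a10 alone passed without the block. Slc2a13, which encodes a proton-coupled myo-inositol transporter, had 129, 107 and 84 counts in EV, 103, 68 and 47 in LAP and 35, 29 and 19 in LIP, with no overlap of LIP and the other groups. Its log2 fold change was -1.81 ± 0.358 in LIP against EV (SE, adjusted p = 0.0553 by edgeR's quasi-likelihood test), just outside the threshold, and it was called by DESeq2 (adjusted p = 0.000943), by the edgeR exact test (adjusted p = 0.00196), with all 9 libraries in 1 model (adjusted p = 0.0211) and without EV replicate 3, LIP replicate 1 or LIP replicate 3 (adjusted p of 0.0278 to 0.0365). The other fits that left out 1 library did not call Slc2a13 in LIP against EV, with adjusted p up to 0.221. Its log2 fold change in LIP against LAP was -1.29 ± 0.394 (SE, adjusted p = 0.166 without and 0.00200 with the block). Slc2a10 in LIP against LAP had -2.40 ± 0.581 (SE, adjusted p = 0.0525 without and 0.000437 with the block). It was called by DESeq2 (adjusted p = 0.0428), by the exact test (adjusted p = 0.0205) and with all 9 libraries in 1 model (adjusted p = 0.0278). It was also called without LAP replicate 3, LIP replicate 2 or LIP replicate 3 (adjusted p of 0.00512 to 0.0447). The other fits that left out 1 library did not call it, with adjusted p up to 0.280.

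Slc5a2, which encodes the sodium-glucose cotransporter SGLT2, was the only list gene called as higher in LIP than in LAP with the block (adjusted p = 0.00676 by edgeR's quasi-likelihood test), and is named here after its values were seen. It had 1, 0 and 1 counts in EV, 3, 1 and 1 in LAP and 10, 31 and 3 in LIP, so that all EV and LAP libraries were at or under the floor of 3 counts and 31 of the LIP counts came from replicate 2. Without the block it was not called in LIP against EV (adjusted p = 0.10) or LIP against LAP (adjusted p = 0.0927).

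**Figure D4:**
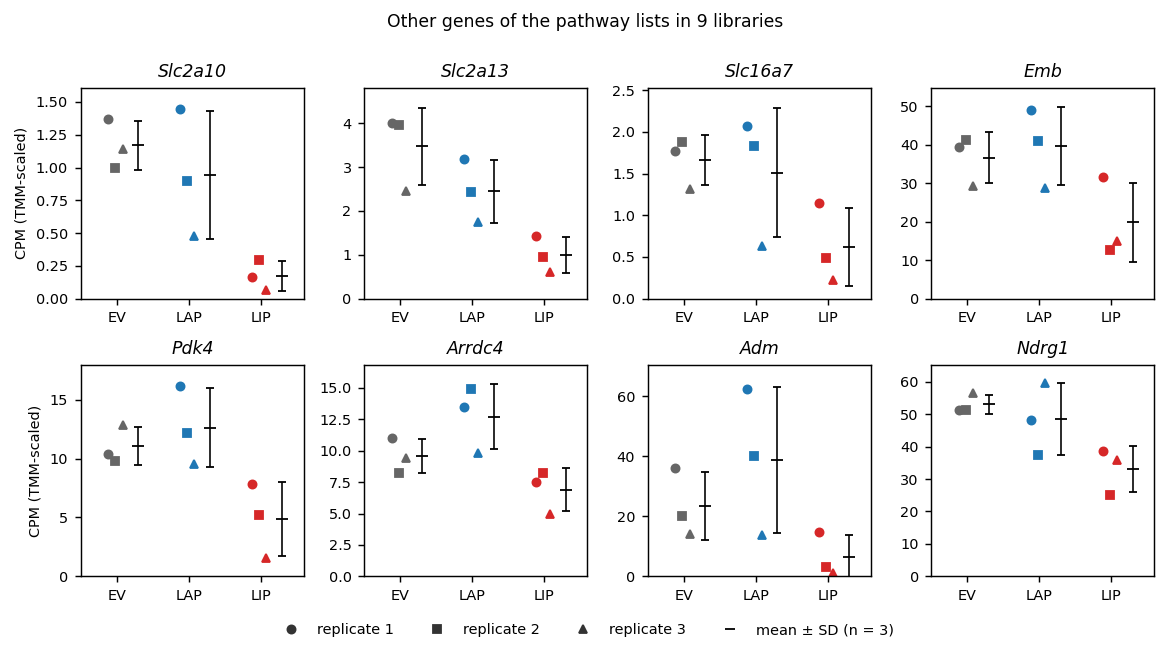
CPM (TMM-scaled, linear axis from 0) of 8 genes of the related lists in the EV, LAP and LIP libraries, with a marker shape for each replicate number and the mean ± SD of 3 libraries; bars that reach below 0 are cut there. The LIP libraries of Slc2a10 and Slc2a13 lay below all EV and LAP libraries, and those of Adm overlapped with both.

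Among 14 genes of monocarboxylate transport and its chaperones, none passed without the block. Emb encodes embigin, a chaperone of monocarboxylate transporters. It stood at 39.5, 41.3 and 29.2 CPM in EV, 49.0, 41.0 and 28.9 CPM in LAP and 31.6, 12.8 and 15.1 CPM in LIP, so that only LIP replicates 2 and 3 stood below all other libraries. Its log2 fold change in LIP against LAP was -0.98 ± 0.301 (SE, adjusted p = 0.169 without and 1.44e-05 with the block). Of the fits that left out 1 library, Emb passed in LIP against EV only without LIP replicate 1, which lay among the EV libraries (adjusted p = 0.0176). That fit called 282 of all genes, beside 72 with all libraries. In LIP against LAP it passed only without LAP replicate 3 (0.0294) or LIP replicate 1 (0.0374). The other fits gave adjusted p up to 0.715 against EV and 0.460 against LAP, all by edgeR's quasi-likelihood test. Slc16a7, which encodes MCT2, had 7 to 67 counts per library. Its log2 fold change in LIP against EV was -1.44 ± 0.476 (SE, adjusted p = 0.263 by edgeR's quasi-likelihood test). Of the fits that left out 1 library, only that without LIP replicate 1 called it (adjusted p = 0.0482), and the others gave up to 0.677. In LIP against LAP the log2 fold change was -1.29 ± 0.527 (SE, adjusted p = 0.406 without and 0.0113 with the block).

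Of the 19 other glycolytic enzymes tested, none passed in any comparison, with or without the block. The 16 that averaged 20 counts or more had log2 fold changes between -0.33 and 0.70 in LIP against EV, with a median of -0.07. The smallest p in LIP against EV was that of Aldoc, which encodes aldolase C, with a log2 fold change of 0.70 ± 0.431 (SE, adjusted p = 0.618 by edgeR's quasi-likelihood test). The 4 other enzymes of fructose 2,6-bisphosphate turnover also gave no call, with Pfkfb1 at 0.25 ± 0.218 (SE) on the log2 scale in LIP against EV.

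Of 13 genes of lactate and pyruvate fate, none passed without the block. Pdk4, which encodes a kinase that switches off pyruvate dehydrogenase, stood at 10.4, 9.82 and 12.9 CPM in EV, 16.2, 12.2 and 9.51 CPM in LAP and 7.80, 5.24 and 1.52 CPM in LIP. The LIP libraries were below all others. Its log2 fold change was -1.19 ± 0.421 in LIP against EV (SE, adjusted p = 0.307) and -1.37 ± 0.408 in LIP against LAP (SE, adjusted p = 0.148 without and 3.88e-07 with the block, both by edgeR's quasi-likelihood test). In the fits without the block that left out 1 library, the adjusted p in LIP against LAP was 0.0239 without LAP replicate 3. In the others it was above the threshold, up to 0.417 by the same test.

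Of 8 genes of the Hif pathway, none passed in any comparison. Hif1an, which encodes the hydroxylase that blocks Hif activity, had the smallest p in LIP against EV, with a log2 fold change of 0.34 ± 0.175 (SE, adjusted p = 0.526 by edgeR's quasi-likelihood test). It stood between 72.1 and 81.1 CPM in EV and at 84.5, 122 and 84.0 CPM in LIP, above all EV libraries.

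Of 22 tested Hif1a targets outside glycolysis, none passed in LIP against EV without the block, where 8 were lower and none higher at an unadjusted p under 0.05, beside 6.75% and 4.23% of all genes. Vegfa, also on this list, had 0 counts and was not tested. The list was set by name, and the part of Hif1a in its values, like that of the lower fibroblast markers, was not tested. The 21 that averaged 20 counts or more had a median log2 fold change of -0.40 in LIP against EV, 0.02 in LAP against EV and -0.57 in LIP against LAP. Against LAP, 1 passed without the block and 10 with it, all lower, beside 1.05% of all genes called without the block and 4.79% called as lower with it. The gene that passed in both fits was Adm, which encodes the vasodilator peptide adrenomedullin. It stood at 36.0, 20.1 and 14.0 CPM in EV, 62.5, 40.1 and 13.8 CPM in LAP and 14.7, 3.18 and 0.969 CPM in LIP. In each group the library numbered 1 was the highest and that numbered 3 the lowest, and the groups overlapped. The log2 fold change in LIP against LAP was -2.61 ± 0.626 (SE, adjusted p = 0.0488 by edgeR's quasi-likelihood test). Adm was not called there by DESeq2 (adjusted p = 0.337) or the edgeR exact test (adjusted p = 0.0746). By the quasi-likelihood test the call was lost with all 9 libraries in 1 model (adjusted p = 0.0566), total counts only (0.0785) or filterByExpr (0.345). It was also lost without LAP replicate 2 or LIP replicate 2 (adjusted p of 0.271 and 0.153). Over the fits that left out single libraries the log2 fold change ranged from -4.21 without LIP replicate 1 to -2.06 without LAP replicate 1, with adjusted p down to 1.61e-06 without LIP replicate 3. In LIP against EV it was -1.91 ± 0.677 (SE, adjusted p = 0.310). Of the fits that left out 1 library there, only that without LIP replicate 1 called Adm (adjusted p = 0.0204), and the others gave up to 0.645.

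Ndrg1, a stress-responsive gene on the same list, stood at 51.2, 51.4 and 56.5 CPM in EV and 38.7, 25.2 and 35.8 CPM in LIP, without overlap. Its log2 fold change in LIP against EV was -0.68 ± 0.181 (SE, adjusted p = 0.151 by edgeR's quasi-likelihood test without the block). Of 5 glucose-responsive regulators tested, none passed without the block, and Myc, with 0 counts, was not tested. Arrdc4, a relative of Txnip that limits glucose uptake, had a log2 fold change of -0.47 ± 0.245 in LIP against EV and -0.86 ± 0.283 in LIP against LAP (SE, adjusted p = 0.220 without and 0.00318 with the block). Over all lists, the block raised the calls in LIP against LAP from 1 to 19 of 93 genes, of which 18 were lower, beside 4.79% of all genes called as lower and 1.72% as higher.

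In LAP against EV, no list gene passed with or without the block, nor by DESeq2 or the edgeR exact test. Beside these counts of 0 by edgeR's quasi-likelihood test, 1 list gene had an unadjusted p under 0.05. It was Slc5a12, which encodes a sodium-coupled lactate transporter, at 2 to 15 counts per EV or LAP library, with a log2 fold change of 1.16 ± 0.484 (SE, adjusted p = 0.918).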

How the data were processed

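RNA of 9 libraries was prepared with the TruSeq RNA v2 kit. According to the submitters' processing notes and the paper's methods, the authors used bcl2fastq 1.8.3, aligned reads to mm10 with TopHat 1.4.1 and counted them per gene with HTSeq 0.5.4. The deposited table holds these raw counts, without normalization, and 0 of its sample columns were left unused. The handling of reads shared by transcripts is not given in the sources used here.

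Genes with at least 1 count in the 6 libraries of a comparison were scaled by TMM and tested with edgeR 4.0.16 (quasi-likelihood test, no covariates) under R 4.3.3, with Benjamini-Hochberg adjustment over all genes tested and a threshold of 0.05. Each SE was obtained from the log2 fold change and the F value of the test, as their quotient after taking the root of F. The script was tested on simulated data. CPM used TMM over all 9 libraries, and ratios used a pseudocount of 0.5. For single values, an exact permutation test was run, two-sided. Gene positions and promoter windows come from RefSeq on GRCm38.p6, and exon lengths, overlaps and shared 50-base stretches from GENCODE transcripts of the same build. Older transcript records were told apart by their accession numbers. Figures were drawn with matplotlib 3.10.9.

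The correlation of deviations from group means was 0.413 to 0.558 for libraries of the same number in LIP against LAP, 0.210 to 0.524 in LAP against EV and -0.121 to 0.290 in LIP against EV. The numbers, which come from the titles, were therefore taken to pair libraries in the first and second of these. Values given without mention of the block come from fits without it, and for those comparisons they do not use this pairing.

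The 10 genes, the lists and the tests were chosen with earlier results of these data known. Named are the 10 genes, Cebpb, list genes past the threshold, per list and comparison the gene of smallest p, and the 3 genes most like Slc2a1, Slc16a3 and Hif1a; not each is described. Genes printed with their transcript records and the marker genes were added as examples. Other settings tried were the edgeR exact test, DESeq2 1.42.0, DESeq2 size factors, total counts only, filterByExpr, all 9 libraries in 1 model, the replicate block, each library left out in turn and a pseudocount of 10 for ratios.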

Additional observations from a re-analysis of the deposited data

How the results depend on the processing

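The 10 genes gave 0 calls in LIP against EV and LAP against EV under every alternative run, and in LIP against LAP under all but the replicate block (3 calls) and leaving out single libraries (0 to 1). Low counts limit Pfkfb3, which filterByExpr removes, and Slc16a3. Counts of list genes called in LIP against EV went from 1 to 4 with DESeq2, 3 with the edgeR exact test, 0 with total counts only, 0 with filterByExpr, 3 with all 9 libraries in 1 model and 9 with the replicate block, and to 0 to 5 without single libraries. In LIP against LAP they went from 1 to 0 with total counts only or filterByExpr, 19 with the replicate block and 0 to 5 without single libraries. The list gene called there by DESeq2, the exact test and all 9 libraries in 1 model was Slc2a10, and not Adm. The numbers of all genes called, 72, 11 and 190 in LIP against EV, LAP against EV and LIP against LAP, went to 321 and 26 with DESeq2 in LIP against EV and LAP against EV, to 301 and 33 with the exact test, to 36 and 113 with total counts only in LIP against EV and LIP against LAP, to 4, 3 and 2 with filterByExpr, to 157 and 5 with all 9 libraries in LIP against EV and LAP against EV, and to 467, 54 and 1183 with the replicate block. They ranged over 22 to 367, 6 to 62 and 7 to 448 without single libraries. The cause was not tested. In LIP against EV the libraries numbered 2 did not correlate best with each other, unlike those numbered 1 and 3, and the block called none of the 10 genes (Ldhb adjusted p = 0.0812 by edgeR's quasi-likelihood test). The 9 of 94 list genes it called there were Slc2a10, Slc2a13 (adjusted p = 0.00351), Emb (0.0267), Adm (0.000778), Ndrg1 (0.0466), Bnip3, Lox and Plod1, all lower, and Slc5a2 (0.0413), which was higher. Of all 18203 genes tested, the same fit called 402 as lower and 65 as higher. Bnip3, Lox and Plod1 are named after their values were seen. Beside the values printed with and without the block, it changed no other call among the 10 genes.

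Signs changed as follows. With total counts only, Pfkfb4 in LAP against EV was -0.0043 on the log2 scale, and with a pseudocount of 10 the log2 ratio of Slc16a3 to Slc16a1 in LIP against EV was 0.16. The other sign changes came from leaving out single libraries. In LAP against EV, log2 fold changes then ranged over -0.13 to 0.39 for Aldoc, -0.088 to 0.28 for Emb, -0.14 to 0.051 for Hif1a, -0.46 to 0.085 for Hk2, -0.051 to 0.23 for Ldha, -0.32 to 0.024 for Ndrg1, -0.044 to 0.35 for Pdk4, -1.32 to 0.24 for Pfkfb3, -0.053 to 0.15 for Pfkfb4, -0.44 to 0.22 for Slc16a7 and -0.42 to 0.083 for Slc2a1, and the log2 ratio of Ldha to Ldhb over -0.42 to 0.0023. In LIP against EV they ranged over -0.33 to 0.25 for Hk2, -1.27 to 0.60 for Hkdc1, -0.93 to 0.19 for Pdk2 and -0.10 to 0.19 for Slc2a8, and the log2 ratio of Slc16a3 to Slc16a1 over -0.38 to 0.32. In LIP against LAP they ranged over -0.21 to 0.42 for Hk2, -0.56 to 0.57 for Pdk2, -0.21 to 0.21 for Pfkfb1, -0.11 to 0.42 for Slc16a3, -0.69 to 0.034 for Slc2a1, -0.082 to 0.26 for Slc2a3, -0.69 to 0.17 for Slc5a12 and -0.19 to 0.051 for Vhl. None of these genes was called in the comparison named.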
